A study of Drosophila melanogaster with 7 samples.

Results

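The genes described here act in the piRNA pathway, the small-RNA system that silences transposable elements in the germline. Members were chosen by symbol: 37 named pathway genes were looked up in the deposited gene table, and all 37 were found among the 13771 genes listed there. Their 71 transcripts were taken from the 29939 listed transcripts by gene identifier. By role, 12 members act in ping-pong amplification and the nuage, 12 in piRNA biogenesis, 8 in transcription and export of piRNA clusters, and 5 in nuclear silencing.

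The RNA came from ovarian cells of Drosophila melanogaster with a bamP-GFP reporter, sorted alive for GFP by flow cytometry, and was sequenced in bulk. The bam promoter is active in the dividing cysts that follow the germline stem cell. In the Atx2 KD group the cells expressed an shRNA against Atx2, the fly Ataxin-2 gene, and in the Control KD group an shRNA against mCherry, a fluorescent protein foreign to the fly. Both shRNAs were expressed with nos-GAL4::VP16, a germline driver, and each group used a single shRNA line (BDSC 36114 for Atx2, BDSC 35785 for mCherry). There were 4 Atx2 KD and 3 Control KD libraries, and the labels do not give the age of the flies. The labels do not say whether the libraries of a group came from separate crosses or dissections, so p-values measure only the spread between these samples.

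A piRNA is bound by an Argonaute protein of the PIWI clade and guides it to matching transposon RNA. Precursors are transcribed from heterochromatic clusters, exported to a granule around the nucleus called the nuage, and cut there and on the surface of mitochondria. In the nuage Aub and AGO3 cut each other's targets in turn, which amplifies the pool (ping-pong), while Piwi, loaded with piRNAs, enters the nucleus and directs chromatin silencing.

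Library totals ranged from 65262402 to 101809997 estimated counts, and levels are given as CPM, counts scaled to a library total that was adjusted by TMM normalization. A count of 3 corresponded to between 0.0303 and 0.0465 CPM on that scale, while the lowest value of any member was 9.39 CPM (cuff in Atx2 KD replicate 3). Atx2 itself was at 245, 211, 269 and 209 CPM in Atx2 KD libraries, against 391, 445 and 424 CPM in Control KD libraries, and the groups did not overlap. The labels call the sorted material germ cells, and germline genes such as vas were abundant, but markers of other cells were detected too, and none of the listed markers that were found was at 0 in all libraries. The summed level of 12 eggshell and yolk genes of follicle cells was 3283 to 19053 CPM in Atx2 KD and 18259 to 36601 CPM in Control KD, with 6 of 12 lower. The 10 markers of later germline stages summed to 1633 to 2260 CPM in Atx2 KD and 2275 to 3249 CPM in Control KD, with 5 lower. For 8 markers of early germline the sums were 1621 to 2031 CPM in Atx2 KD and 2043 to 2359 CPM in Control KD, with 3 lower and 1 higher. The 5 muscle genes were all higher, at 519 to 737 CPM summed in Atx2 KD and 276 to 447 CPM in Control KD. The blood cell list had 1 of 5 genes higher, at 221 to 738 CPM in Atx2 KD and 73.5 to 246 CPM in Control KD. None of 12 heat shock genes passed (edgeR; 0 at an unadjusted p under 0.05), and their summed level was 4192 to 11976 CPM in Atx2 KD and 5018 to 11298 CPM in Control KD, higher in replicates numbered 3 and 4 than in replicates 1 and 2 of the same group. In bulk RNA, fewer cells of a type and less RNA per cell cannot be told apart. Alternative fits given below use an eggshell and yolk covariate or scaling to early germline markers. They do not measure the part of these markers in the results on the members, which was not tested.

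All 37 members passed the filter on low counts. Of these, 11 were lower and 1 was higher in Atx2 KD at an adjusted p of 0.05 (edgeR quasi-likelihood test, Benjamini-Hochberg over 10514 genes), and 25 did not pass. Over all genes tested, 7.67% were lower and 5.61% higher by the same rule, against 29.7% and 2.70% of the members. The genes tested were not matched to the members for level or for germline expression. Of the later germline markers 5 of 10 were lower, with a median log2 fold change of -0.44. Of the early germline markers 3 of 8 were lower and 1 higher, with a median of -0.14. The median log2 fold change of the members was -0.22, against 0.0061 over all genes tested, and 28 of 37 members had a negative value. The 4 Atx2 KD libraries lay entirely below the 3 Control KD libraries for 18 members and entirely above for 4, where 15.1% and 12.3% of all genes did so. Deviations of same-numbered libraries from their group means correlated at 0.146 to 0.519 across genes, and those of unlike-numbered libraries at -0.383 to 0.157. With the replicate number as a block 18 members were lower and 4 higher, where 14.2% and 13.8% of all genes were. That made 28% of all genes called, against 13.3% without the block.

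**Figure D1:**
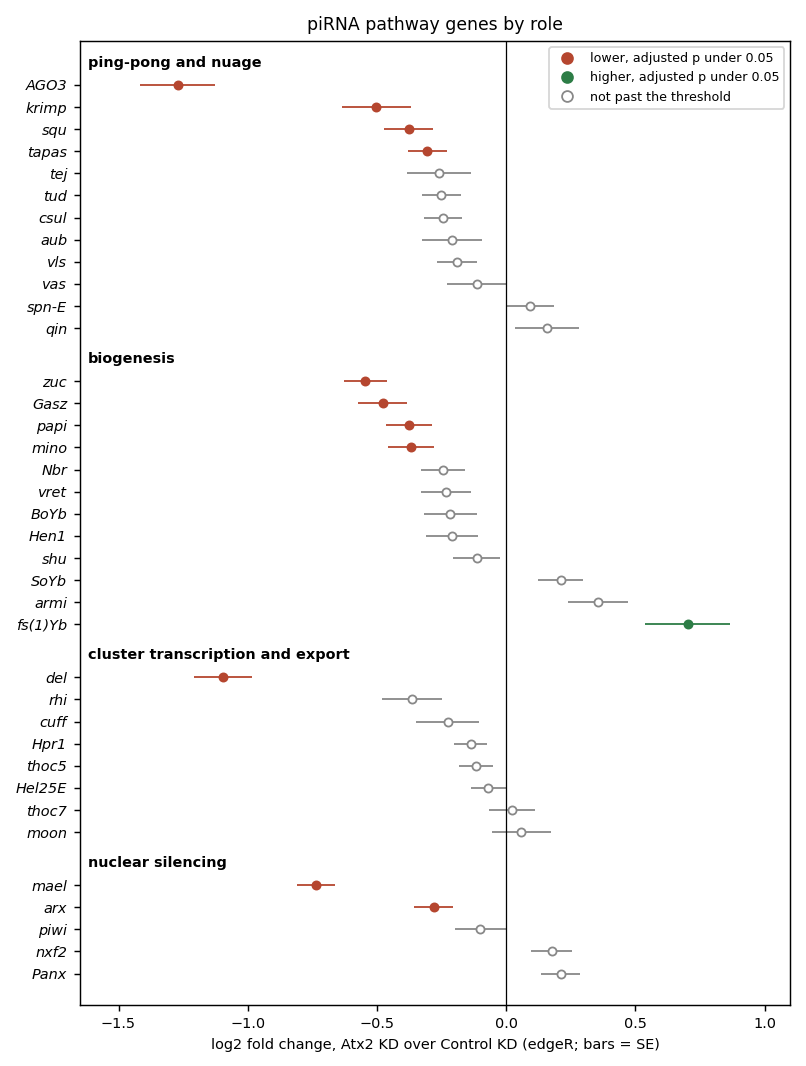
Log2 fold change of each of the 37 members, Atx2 KD over Control KD, with its standard error (bars), grouped by role. Filled points passed an adjusted p of 0.05 in edgeR; 11 lie left of 0 and only fs(1)Yb lies right of it. AGO3, del and mael lie farthest to the left.

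In the ping-pong and nuage group AGO3 fell most, while aub and vas, its partners in the same granule, did not pass the test. Of the 12 genes in the group, 4 were lower (AGO3, krimp, squ and tapas) and none was higher (edgeR), and the median log2 fold change was -0.25. At an unadjusted p under 0.05 (edgeR), 7 were lower and 0 higher, where 1717 and 1496 of all 10514 genes tested were. AGO3 (FBgn0250816; arm 3L, 23554593 to 23689640, plus strand), the PIWI-clade protein that mainly binds sense piRNAs, was at 144, 147, 112 and 163 CPM in Atx2 KD, against 400, 343 and 280 CPM in Control KD. The highest Atx2 KD library was well below the lowest control. The means were 141 ± 21.1 CPM (SD, n = 4) in Atx2 KD and 341 ± 60.2 CPM (SD, n = 3) in Control KD, a log2 fold change of -1.27 ± 0.14 (SE) with an edgeR adjusted p of 0.00134. Within replicates 1 and 2 the difference in mean log2 CPM, Atx2 KD minus Control KD, was -1.35, and within the higher numbers (replicates 3 and 4 of Atx2 KD, replicate 3 of Control KD) it was -1.05.

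The other cytoplasmic PIWI protein, which mainly binds antisense piRNAs, is encoded by aub (FBgn0000146; arm 2L, 10997819 to 11001476, minus strand). The gene was at 248, 230, 205.1 and 273 CPM in Atx2 KD and at 290, 303 and 237 CPM in Control KD. The groups overlapped through Control KD replicate 3, and the log2 fold change of -0.21 had a 95% interval of -0.47 to 0.05 (edgeR adjusted p 0.258). In the blocked fit aub was lower, by a log2 fold change of -0.28 with an adjusted p of 0.0150. The DEAD-box helicase gene vas, whose protein scaffolds the nuage, averaged 398 ± 43.6 CPM (SD, n = 4) in Atx2 KD and 430 ± 57.7 CPM (SD, n = 3) in Control KD, with overlapping groups and an edgeR adjusted p of 0.550. Since vas shares 563 exon bases with solo, a gene on the same strand that fell by 0.55 on the log2 scale (adjusted p 0.0111), reads of the pair may be divided between them, and the summed locus had a log2 fold change of -0.16 (adjusted p 0.376).

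**Figure D2:**
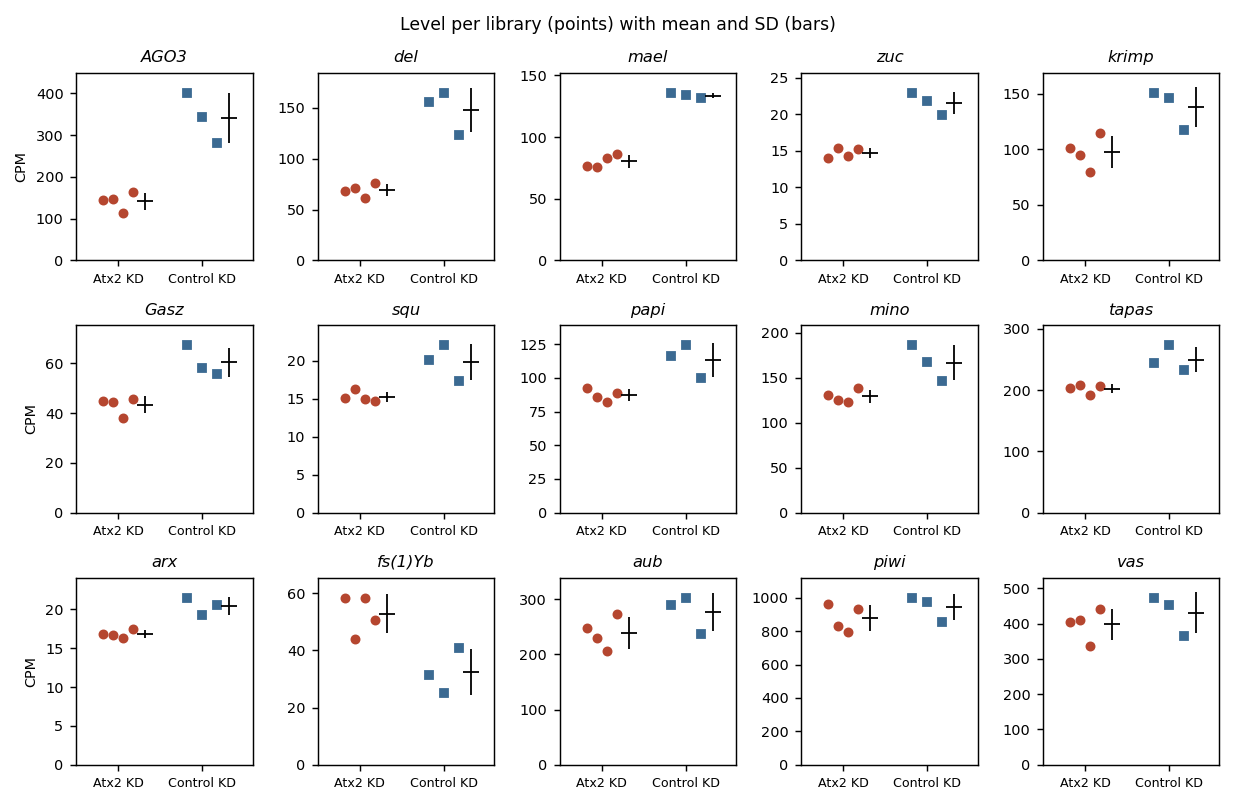
CPM in each library for the 12 members that passed the test and for aub, piwi and vas, with Atx2 KD (4 circles) left of Control KD (3 squares) and the mean and SD as bars. For AGO3, del and mael the Atx2 KD points lie far below the controls, while for aub, piwi and vas the ranges overlap.

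Krimper, the product of krimp, is a Tudor protein that brings Aub and AGO3 together. Its gene was at 101, 94.5, 79.4 and 115 CPM in Atx2 KD and at 150, 146 and 117 CPM in Control KD. Atx2 KD replicate 4 came within a few CPM of Control KD replicate 3, at a log2 fold change of -0.50 ± 0.13 (SE; edgeR adjusted p 0.0387). For tapas, a Tudor gene related to mammalian TDRD7, the values were 203, 208, 192 and 206 CPM in Atx2 KD and 244, 273 and 233 CPM in Control KD, a log2 fold change of -0.30 (adjusted p 0.0305). For squ, a nuage gene whose product binds Aub, they were 15.1, 16.3, 15.0 and 14.7 CPM in Atx2 KD and 20.1, 22.0 and 17.4 CPM in Control KD, a log2 fold change of -0.38 (adjusted p 0.0348). Neither gene's groups overlapped, although squ shares 223 exon bases, 16.3% of its exons, with grp on the same strand. The neighbour grp had a log2 fold change of -0.15 (adjusted p 0.183).

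Among the rest of the nuage group, tud, a Tudor scaffold of the germ plasm, was at 671, 635, 641 and 722 CPM in Atx2 KD and at 825, 783 and 773 CPM in Control KD. The arginine methyltransferase gene csul, whose enzyme creates the marks that Tudor domains bind on PIWI proteins, was at 57.5, 61.4, 61.3 and 65.6 CPM in Atx2 KD and at 72.4, 75.9 and 69.9 CPM in Control KD. Neither gene's groups overlapped, yet the edgeR adjusted p was 0.0625 for tud and 0.0608 for csul. With the replicate block both were lower (0.00937 and 0.0256), as was tej, a Tudor gene that works with vas, at a log2 fold change of -0.31 (adjusted p 0.0196 with the block, 0.189 without it). Its levels were 70.9, 78.8, 61.2 and 79.6 CPM in Atx2 KD and 95.1, 93.0 and 72.9 CPM in Control KD, overlapping through Control KD replicate 3. The cofactor gene of csul, vls, had a log2 fold change of -0.19 (adjusted p 0.135). The 2 positive values of the group belonged to qin, a Tudor gene that keeps ping-pong between unlike partners, at 0.16, and to the helicase gene spn-E, at 0.09, and neither passed the test. Both values became negative in the fit with an eggshell and yolk covariate, at -0.13 each.

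In the biogenesis group 4 of 12 genes were lower and 1 was higher, with a median log2 fold change of -0.22. The genes that fell were zuc, Gasz, mino and papi, and the gene that was higher was fs(1)Yb. The mitochondrial endonuclease gene zuc, whose enzyme makes the 5′ ends of phased piRNAs, was at 14.0, 15.5, 14.4 and 15.3 CPM in Atx2 KD and at 22.9, 21.9 and 19.9 CPM in Control KD. The groups were well apart, with a log2 fold change of -0.54 ± 0.08 (SE; edgeR adjusted p 0.00432). Gasz, the membrane scaffold that holds Armi at mitochondria, was at 45.0, 44.5, 38.2 and 45.7 CPM in Atx2 KD and at 67.2, 58.0 and 55.8 CPM in Control KD, a log2 fold change of -0.48 ± 0.09 (SE; adjusted p 0.0138).

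The acyltransferase gene mino was at 131, 125, 123 and 138 CPM in Atx2 KD and at 186, 167 and 147 CPM in Control KD, a log2 fold change of -0.37 (edgeR adjusted p 0.0306). For papi, a Tudor gene whose mitochondrial protein assists trimming of piRNA 3′ ends, the values were 92.4, 86.1, 82.4 and 88.8 CPM in Atx2 KD and 116, 124 and 99.8 CPM in Control KD, a log2 fold change of -0.38 (adjusted p 0.0270). Control KD replicate 3 was the lowest control for all 4 of these genes. An annotated antisense RNA, asRNA:CR46452, covers 37.0% of the exon bases of mino on the opposite strand, and whether strand was used in assigning reads is not given in the sources used here.

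The member that rose was fs(1)Yb (FBgn0000928; arm X, 2720468 to 2724158, plus strand), which encodes the Tudor helicase that builds the Yb body of somatic ovarian cells. It was at 58.3, 44.0, 58.5 and 50.8 CPM in Atx2 KD and at 31.6, 25.0 and 40.9 CPM in Control KD. The lowest Atx2 KD library stood just above the highest control, with a log2 fold change of 0.70 ± 0.17 (SE; edgeR adjusted p 0.0272). The 11 markers of escort, niche and early follicle cells had 2 genes higher, eya at 0.66 and Fas3 at 0.44 on the log2 scale, a median of 0.35 and a summed level of 1830 to 2149 CPM in Atx2 KD against 1591 to 1981 CPM in Control KD, and their part in the result on fs(1)Yb was not tested. The call was lost, with an adjusted p of up to 0.0941, when Atx2 KD replicate 1, 3 or 4 was left out (4.17%, 3.08% and 3.24% of all genes were higher) or Control KD replicate 1 or 2 (1.7% and 1.73%). It held without Atx2 KD replicate 2 (4.57%) or Control KD replicate 3 (5.73%). It was also lost with limma on log2(TPM + 1) (0.0595). With the mean log2 CPM of the eggshell and yolk genes as a covariate the log2 fold change was 0.32, less than in the fit reported, with an edgeR adjusted p of 0.549.

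The relatives of fs(1)Yb among the members, SoYb and BoYb, did not pass the test. SoYb was at 192, 168, 169 and 175 CPM in Atx2 KD and at 163, 159 and 135 CPM in Control KD, without overlap, at a log2 fold change of 0.21 (edgeR adjusted p 0.141; 0.0486 with the replicate block). BoYb was at 44.3, 38.4, 37.7 and 43.3 CPM in Atx2 KD and at 52.5, 49.0 and 41.1 CPM in Control KD, with overlap, at a log2 fold change of -0.22 (adjusted p 0.188; 0.0385 with the block). A Tudor gene that acts with them, vret, was at 57.0, 48.9, 47.8 and 59.9 CPM in Atx2 KD and at 65.7, 61.8 and 60.9 CPM in Control KD, without overlap (adjusted p 0.139; 0.0194 with the block). SoYb shares 247 exon bases on the same strand with CG31875, which was itself higher, by 0.33 on the log2 scale (adjusted p 0.0339).

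The helicase gene armi, whose protein feeds precursors to Zuc, was at 320, 294, 403 and 323 CPM in Atx2 KD and at 260, 238 and 288 CPM in Control KD. The groups did not overlap, the log2 fold change was 0.36 ± 0.12 (SE), and the edgeR adjusted p was 0.0740. With the replicate block armi was higher (adjusted p 0.00440). Nearly all of its exon bases, 99.6%, lie within the exons of CG46463 on the same strand, so the split between the pair rests on the authors' assignment of reads. Summed, the locus was at 555, 455, 550 and 569 CPM in Atx2 KD and at 415, 400 and 428 CPM in Control KD, a log2 fold change of 0.36 ± 0.09 (SE) with an edgeR adjusted p of 0.0333.

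The remaining biogenesis genes did not pass. Nbr, an exonuclease gene for trimming 3′ ends, was at 75.7, 81.8, 76.0 and 77.4 CPM in Atx2 KD and at 93.5, 100.6 and 82.0 CPM in Control KD, just without overlap. It had a log2 fold change of -0.24 (edgeR adjusted p 0.0905), and it was called lower when Control KD replicate 3 was left out (0.0397). The methyltransferase gene Hen1, whose enzyme methylates the trimmed 3′ end, was at -0.21 (0.196), and shu, a co-chaperone gene for loading PIWI proteins, was at -0.11 (0.440).

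Among genes for cluster transcription and export only del passed the test. Of the 8 genes 1 was lower and none higher (edgeR), and the median log2 fold change was -0.13. At an unadjusted p under 0.05 (edgeR), 2 were lower and 0 higher, where 1717 and 1496 of all 10514 genes tested were. Deadlock, the product of del (FBgn0086251; arm 2L, 21145137 to 21148546, minus strand), joins the cluster-binding protein Rhino to the factors that transcribe clusters. The gene was at 68.3, 71.1, 61.1 and 75.8 CPM in Atx2 KD, against 156, 164 and 123 CPM in Control KD. All 4 knockdown libraries were far below all 3 controls, with means of 69.1 ± 6.17 CPM (SD, n = 4) in Atx2 KD and 148 ± 21.8 CPM (SD, n = 3) in Control KD, a log2 fold change of -1.10 ± 0.11 (SE) and an edgeR adjusted p of 0.00089.

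The partners of del did not pass the test. The HP1-like protein Rhino marks clusters, and its gene rhi was at 28.4, 24.4, 21.2 and 27.2 CPM in Atx2 KD and at 35.9, 33.1 and 28.7 CPM in Control KD, without overlap, at a log2 fold change of -0.36 (edgeR adjusted p 0.0690; 0.00225 with the replicate block). Cutoff, from cuff, shields the nascent cluster transcript, and its gene lay between 9.39 and 11.7 CPM in Atx2 KD and between 10.8 and 13.8 CPM in Control KD, with overlap (adjusted p 0.248). For moon, a germline relative of the transcription factor subunit TfIIA-L, the log2 fold change was 0.06 (adjusted p 0.770), and it was -0.04 without Control KD replicate 3. The export helicase gene Hel25E and the THO complex genes thoc5, thoc7 and Hpr1 lay between -0.14 and 0.02, with edgeR adjusted p-values of 0.186 to 0.895, although thoc5 and Hpr1 were lower in every Atx2 KD library than in every control. The signs of Hel25E and thoc7 changed between settings.

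In the nuclear silencing group mael and arx fell, piwi did not pass, and the median log2 fold change of the 5 genes was -0.10. Maelstrom, an HMG-box protein that acts downstream of Piwi, is encoded by mael (FBgn0016034; arm 3L, 22721203 to 22726234, plus strand). Its gene was at 76.1, 75.9, 83.1 and 86.1 CPM in Atx2 KD, against 135, 134 and 131 CPM in Control KD. The controls were tightly grouped and lay far above the knockdown libraries, with a log2 fold change of -0.74 ± 0.07 (SE) and an edgeR adjusted p of 0.00069. The zinc-finger gene arx, whose protein Asterix binds Piwi in the nucleus, was at 16.8, 16.7, 16.2 and 17.4 CPM in Atx2 KD and at 21.5, 19.2 and 20.5 CPM in Control KD. Its groups did not overlap (log2 fold change -0.28, adjusted p 0.0397), but the call held in only 2 of 15 alternative fits, the replicate block and DESeq2.

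Among the 37 members piwi (FBgn0004872; arm 2L, 10982205 to 10987420, minus strand) had the highest CPM, at 959, 830, 796 and 934 CPM in Atx2 KD and at 999.9, 973 and 857 CPM in Control KD. The ranges overlapped, and the log2 fold change of -0.10 had a 95% interval of -0.32 to 0.12 (edgeR adjusted p 0.531). Panx and nxf2 encode partners in the complex that carries the silencing signal from Piwi to chromatin. The level of Panx was 42.9, 42.6, 45.9 and 39.8 CPM in Atx2 KD and 36.6, 39.1 and 35.2 CPM in Control KD, just without overlap, at a log2 fold change of 0.21 (adjusted p 0.0963; 0.0371 with the block). For nxf2 the means were 95.8 ± 5.56 CPM (SD, n = 4) in Atx2 KD and 84.9 ± 5.89 CPM (SD, n = 3) in Control KD, with overlapping groups (adjusted p 0.174). An annotated TART-A element on the same strand covers 21.6% of the exon bases of nxf2, and an INE-1 element 5.22% of those of AGO3.

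Levels between genes were compared as TPM, which is scaled for transcript length. In Control KD the mean TPM of the members spanned 35.1-fold, between 419 for piwi and 11.9 for fs(1)Yb, and the lowest member stood at percentile 54.5 of all listed genes. AGO3 averaged 81.2 ± 12.8 TPM (SD, n = 4) in Atx2 KD, where it ranked 10, and 183 ± 33.7 TPM (SD, n = 3) in Control KD, where it ranked 4. The rank of del was 28 in Atx2 KD and 18 in Control KD, and that of mael 12 in Atx2 KD and 9 in Control KD. The top 3 members by mean TPM, piwi, Hel25E and vas, were in the same order in both groups. In Control KD replicate 3, however, Hel25E (387.1 TPM) was slightly above piwi (386.7 TPM). In the control order the library ranges overlapped in 32 of 36 neighbouring pairs. The exceptions were Hel25E above vas, vas above AGO3, AGO3 above aub, and Panx above BoYb. Ranges take no account of both genes being measured in the same libraries. Hen1, for example, was above cuff in each control library although their ranges overlapped.

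**Figure D3:**
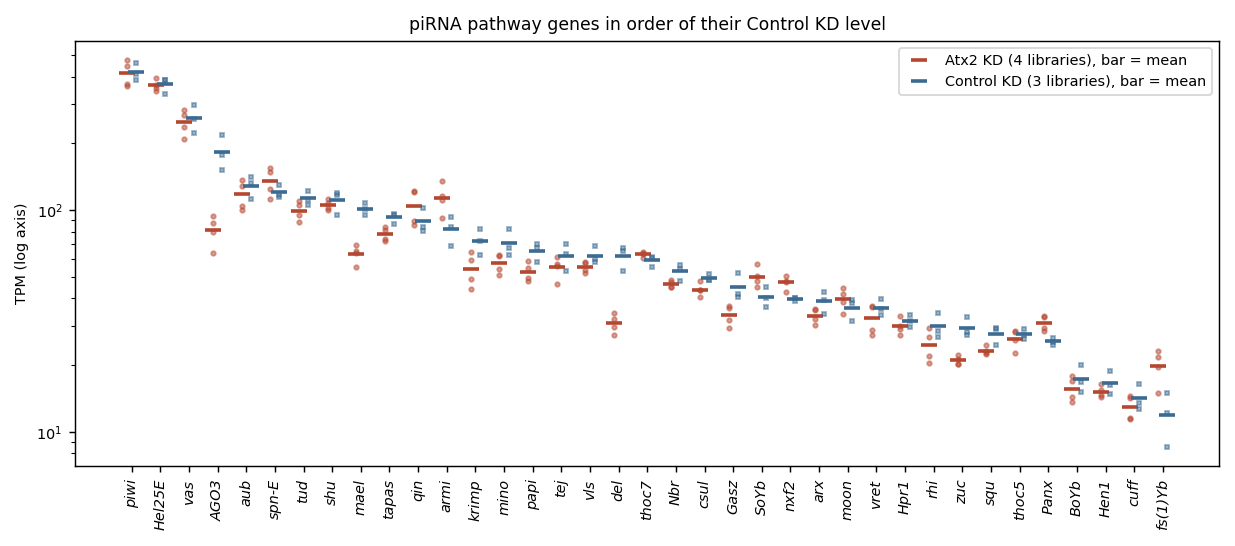
TPM of each member on a log axis, in order of the mean level in Control KD, with 4 Atx2 KD libraries (circles) left of 3 Control KD libraries (squares) and a bar for each mean. The order runs between piwi at 419 TPM and fs(1)Yb at 11.9 TPM in Control KD; the Atx2 KD bars of AGO3, mael and del lie far below their Control KD bars.

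Ratios of partner genes within a library do not depend on scaling between libraries. The log2 ratio of aub over AGO3 TPM was 0.56, 0.39, 0.64 and 0.54 in Atx2 KD and -0.63, -0.41 and -0.43 in Control KD. In TPM, aub was the more abundant of the pair in every Atx2 KD library and AGO3 in every control. The geometric mean ratio was 1.45 in Atx2 KD and 0.711 in Control KD, a log2 difference of 1.03. An exact permutation test, two-sided, gave p = 0.0286, the smallest that 35 splits of 7 libraries allow, and 0.0571 after adjustment over the 6 ratios computed. The ratio of rhi over del was 0.793 in Atx2 KD and 0.483 in Control KD, and that of piwi over armi 3.65 in Atx2 KD and 5.13 in Control KD, without overlap and with the same exact p of 0.0286 (adjusted 0.0571). The armi value carries the assignment between armi and CG46463. For piwi over aub (exact p 0.143), Hel25E over thoc5 (0.429) and nxf2 over Panx (0.657) the ranges overlapped. That test takes no account of the replicate numbers. Between same-numbered libraries the difference in log2 ratio, Atx2 KD minus Control KD, was 0.17, 0.18 and 0.11 for piwi over aub and -0.04, -0.06 and -0.09 for nxf2 over Panx, of 1 sign within each ratio, while for Hel25E over thoc5 it was -0.03, 0.27 and -0.04.

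At the transcript level all 71 member transcripts passed the filter, and 9 were called, 7 lower and 2 higher (edgeR), where 4.71% of all 21728 transcripts tested were called, 2.66% lower and 2.05% higher. With the replicate block 8 were called, where 3.01% of all transcripts were, and 6 transcripts were called in both fits, while those of Gasz, zuc and vas were not. The count was 4 without Control KD replicate 1 and 3 without Control KD replicate 2, where 0.822% and 0.708% of all transcripts were called. It was 6, 8, 7 and 6 without Atx2 KD replicates 1, 2, 3 and 4 in turn (2.23%, 3.06%, 1.59% and 1.99% of all transcripts) and 9 without Control KD replicate 3 (3.65%). DESeq2 called 18, where 15.7% of all transcripts were called. Those lower were 1 transcript each of AGO3, Gasz, mael, mino and zuc and 2 of del. In AGO3 the main transcript FBtr0299882 averaged 78.7 ± 7.95 CPM (SD, n = 4) in Atx2 KD and 196 ± 40.6 CPM (SD, n = 3) in Control KD, at a log2 fold change of -1.32 (adjusted p 0.0079). The AGO3 transcript FBtr0301725 averaged 29.2 ± 1.82 CPM (SD, n = 4) in Atx2 KD and 34.5 ± 4.52 CPM (SD, n = 3) in Control KD (adjusted p 0.240), so that its share of the gene was 21.2 ± 4.95% (SD, n = 4) in Atx2 KD and 10.3 ± 1.77% (SD, n = 3) in Control KD, without overlap. The test of unequal change among AGO3 transcripts did not pass (diffSpliceDGE adjusted p 0.220). The main del transcripts FBtr0081502 and FBtr0333084 fell by 1.08 and 1.13 on the log2 scale, and the share of FBtr0081502 was 73.3 ± 2.99% (SD, n = 4) in Atx2 KD and 72.2 ± 5.58% (SD, n = 3) in Control KD.

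Both transcripts that rose belong to genes whose total did not pass the test. For SoYb, FBtr0308122 made up 56.4, 65.2, 67.2 and 64.3% of the gene's estimated counts in Atx2 KD and 44.0, 47.2 and 48.8% in Control KD. It was the major form in every Atx2 KD library and the minor form in every control, at a log2 fold change of 0.65 ± 0.08 (SE; edgeR adjusted p 0.00832). The 2 SoYb transcripts have the same coding length and differ in the annotated first exon, of 13 bases in FBtr0308122 and 61 bases in FBtr0303882. Their exon totals are 4861 and 4909 bases, so most reads could come from either form. The shares therefore rest on the authors' assignment of reads. For vas, FBtr0445186 made up 35.3, 24.6, 39.2 and 29.7% in Atx2 KD and 18.5, 16.8 and 22.8% in Control KD, at a log2 fold change of 0.63 ± 0.12 (SE; adjusted p 0.0364, and not called with the replicate block). This form has 2285 exon bases against 2241 in the main form FBtr0445185, with the same coding length of 1983 bases. Its share likewise rests on the assignment of reads.

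Unequal change among transcripts could be tested in 17 members, since 20 have a single listed transcript. It passed in vas alone (diffSpliceDGE adjusted p 0.0328; 0.00358 with the replicate block), where 3.96% of 5103 genes passed. A limma test on the shares, which called 2.47% of genes, gave 0.154 for vas, and leaving out single libraries gave between 0.0182 and 0.305, with the call lost without Atx2 KD replicate 4, Control KD replicate 1 or Control KD replicate 2. For SoYb the adjusted p was 0.0830. In mino, FBtr0335011 made up 12.6 ± 1.34% (SD, n = 4) in Atx2 KD and 19.9 ± 1.26% (SD, n = 3) in Control KD, and in armi, FBtr0309840 made up 34.6, 25.9, 24.7 and 26.4% in Atx2 KD and 4.62, 0.68 and 18.2% in Control KD. Neither pair of groups overlapped, but the usage test did not pass for mino (0.194) or armi (0.346). The log2 fold change of FBtr0335011 of mino was -1.02 (edgeR adjusted p 0.0198). For the main mino form FBtr0085250 it was -0.13 (0.399), for FBtr0085249 -0.57 (0.113) and for FBtr0085251 -0.12 (0.908).

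**Figure D4:**
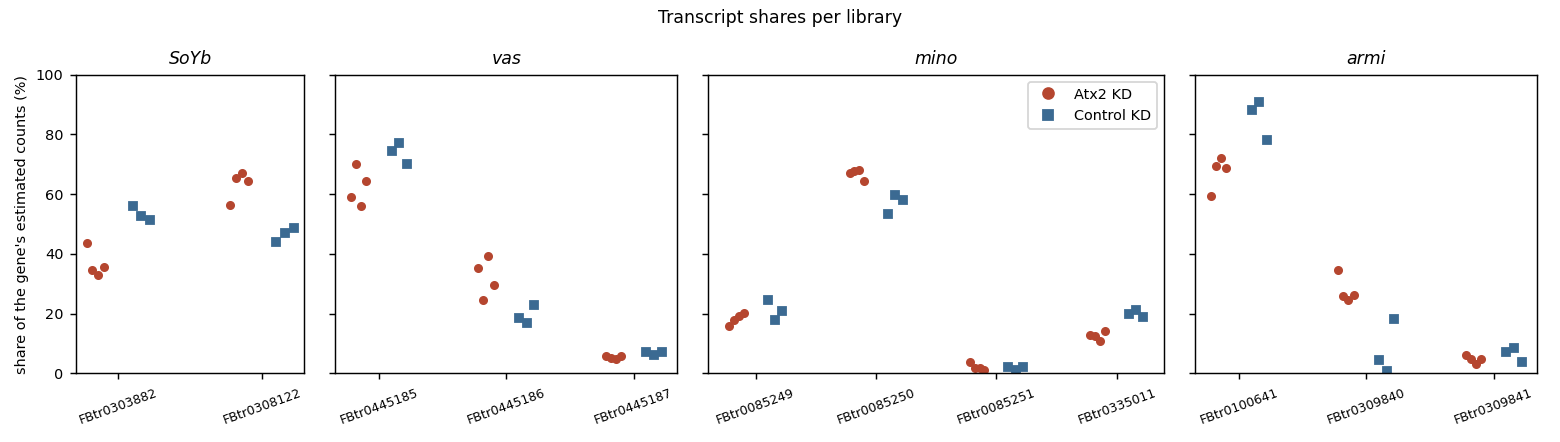
Share of each transcript in its gene's estimated counts (%) for SoYb, vas, mino and armi, with 4 Atx2 KD libraries (circles) left of 3 Control KD libraries (squares). FBtr0308122 of SoYb lies above 56% in Atx2 KD and below 49% in Control KD, and FBtr0445186 of vas lies higher in every Atx2 KD library than in any control.

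Of 25 further pathway genes that are not members, 5 were lower and 3 higher (edgeR), where 7.67% and 5.61% of all genes tested were. Their median log2 fold change was -0.04, near the 0.0061 of all genes tested. Those lower included partners of the cluster machinery: Boot, whose protein Bootlegger recruits the cluster export factor, fell by 1.05 on the log2 scale (adjusted p 0.00183), Nxf3, the export factor itself, fell by 0.49 (0.0204), and kipf, whose zinc-finger protein guides Rhino, fell by 0.70 (0.0130). Boot was at 63.7, 63.6, 49.6 and 67.0 CPM in Atx2 KD and at 137, 135 and 105 CPM in Control KD, far apart as for del. Of the chromatin factors, the histone methyltransferase gene egg fell by 0.43 (0.0108) and the demethylase gene Su(var)3-3 by 0.36 (0.0164). Those higher were TfIIA-S (0.31), tex of the THO complex (0.35) and Nxt1, the small export partner (0.35), with edgeR adjusted p-values of 0.0279 to 0.0419.

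Some members lie close to each other in the genome. The gap between aub and piwi is 10398 bases, and between del and Nbr 12089 bases, all on arm 2L. Neighbours of a member were taken on both sides in order of start position, not by distance. Of 10 such tested genes, none was called around del, 2 were lower around AGO3, and 1 was lower around mael. Around mael all 10 had a negative log2 fold change, between -2.09 and -0.02, with a median of -0.28. In the annotation 6 members share exon bases with another gene or element on the same strand and 17 with a gene on the opposite strand, mael among them, and reads of such pairs may not be told apart.

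Across 15 alternative fits the calls differed in how long they held. Only mael was called in every one. AGO3 and del were called in all but the fit with the mean log2 CPM of the eggshell and yolk genes as a covariate, in which their log2 fold changes were -1.31 (edgeR adjusted p 0.0545) and -1.04 (0.0502). The call of zuc was lost in that fit and in the one scaled to early germline markers. Of the 15 alternatives, Gasz was called in 9, fs(1)Yb in 8, papi in 7, and krimp, tapas and squ in 6 each. The call of mino held in 4 and that of arx in 2. With the covariate 1 member was lower and none higher, where 1.17% of all genes were lower and 1.62% higher. The covariate genes themselves differed between the groups, with a median log2 fold change of -1.91, so covariate and knockdown are partly confounded in that fit. The SE of the AGO3 log2 fold change was 0.28 with the covariate and 0.14 in the fit reported. Scaling to early germline markers gave 3 lower members and 1 higher (1.93% and 2.74% of all genes), and upper-quartile scaling 8 and 2 (5.71% and 7.71%). DESeq2 gave 14 and 2 (10.6% and 9.81%), limma on log2(TPM + 1) 4 and 0 (4.17% and 6.54%), and replicates 1 and 2 alone 5 and 1 (3.17% and 2.82%). Against the fit reported, DESeq2 added tud, csul and rhi to the lower calls and armi to the higher ones, upper-quartile scaling added Panx, and leaving out Control KD replicate 3 added Nbr and rhi. With single libraries left out, the share of all genes called lower moved as well. Without Control KD replicate 1 or replicate 2 there were 4 lower members, where 2.67% and 2.64% of all genes were lower. Without Atx2 KD replicate 3 there were 5 (4.33%), without Atx2 KD replicate 1 or 4 there were 6 (5.49% and 4.39%), without Atx2 KD replicate 2 there were 8 (6.65%), and without Control KD replicate 3 there were 12 (7.92%). All 12 called members had the same sign within replicates 1 and 2 as within replicates 3 and 4. Their groups did not overlap, so any split of these libraries had to give the same sign. Of the 25 members not called, 21 had the same sign in both as well.

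**Figure D5:**
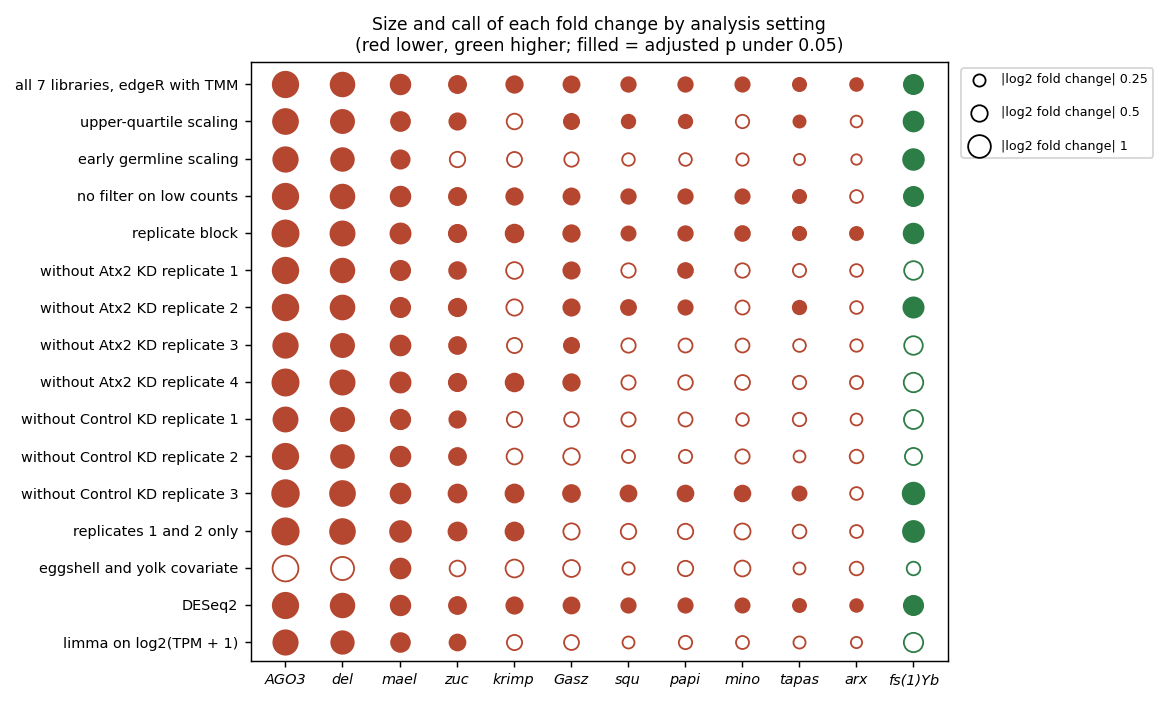
Log2 fold change of the 12 called members (columns) in the fit reported and in 15 alternatives (rows); the area of a circle grows with the size of the change, red is lower and green higher in Atx2 KD, and filled circles passed an adjusted p of 0.05. The column of mael is filled throughout, those of AGO3 and del lack 1 fill, and arx is filled in the fit reported, the replicate block and DESeq2.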

How the data were processed

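Per the submitters' processing notes, reads were handled with bcl2fastq 2.20, Trim Galore 0.6.7, cutadapt 2.10 and Salmon 1.9.0. The resulting estimated counts were deposited by the authors without normalization. TPM values were deposited by the authors beside the counts, per the labels and file headers. Per the labels' protocols, directional libraries were made from 18 ng of rRNA-depleted RNA without poly(A) selection, after enzyme digestion of ovaries at 37 °C for 30 min. The index, genome build and strand setting are not given in the sources used here.

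Counts were rounded. The filter was filterByExpr at a minimum count of 10 (15 in total), and TMM gave the scaling. In R 4.3.3, edgeR 4.0.16 fitted the group alone, and its quasi-likelihood test was two-sided with Benjamini-Hochberg adjustment over all genes at 0.05. CPM values are TMM-normalized, and the SE is the log2 fold change over the square root of F. Transcript usage was tested with diffSpliceDGE. Ratios used TPM with a pseudocount of 0.1. DESeq2 1.42.0 and limma 3.58.1 (log2 of TPM + 1) served as alternatives, beside upper-quartile scaling, scaling to early germline markers, no filter, a replicate block, an eggshell covariate, replicates 1 and 2 alone, and leaving out each library. The tests were checked on simulated data. Intervals and the floor of 3 counts cover counting error or the spread between libraries only, since the labels mention no molecular identifiers. Within groups, pairs of libraries differed by chi-square values of 45.6 to 236 per degree of freedom, so each counted as 1 replicate.

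Sample titles number the libraries. Deviations of same-numbered libraries from their group means correlated at 0.146, 0.336 and 0.519 across genes, over 0.1 in each of 3 pairs. Libraries with unlike numbers correlated at -0.383 to 0.157, so pair 1 did not stand out from them. The numbers were still taken to pair the samples, although the labels do not say what a number stands for. Atx2 KD replicate 4 has no partner, so it adds nothing to the group contrast in the blocked fit. All 37 members were named. Values in each library were given for those that passed the test, were PIWI-clade Argonautes or changed call under an alternative, and the others were given by range, mean or log2 fold change. Members and gene lists were chosen with earlier results of these data known. Positions are from the Ensembl release 115 annotation of BDGP6.54, matched by FlyBase identifier. The marker nos was not analysed here. Hop and smt3 were matched under the file's symbols Stip1 and Sumo.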

Additional observations from a re-analysis of the deposited data

Results flagged for a closer look

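Among 50 values examined within the 4 Atx2 KD libraries for a library far from its group, 2 stood out, and chance flags about 1 in 20 groups. Gasz was at 38.2 CPM in Atx2 KD replicate 3, while the other Atx2 KD libraries lay between 44.5 and 45.7 CPM. The log2 ratio of piwi over armi was 1.46 in the same library, while the others lay between 1.98 and 2.04.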

How the results depend on the processing

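The 11 lower members became 18 with the replicate block, 3 with scaling to early germline markers, 1 with the eggshell and yolk covariate, 5 with replicates 1 and 2 only and 4 with limma on TPM, and 4 to 12 when single libraries were left out. The 1 higher member became 4 with the block, 2 with upper-quartile scaling and with DESeq2, 0 with the covariate and with limma, and 0 to 1 without single libraries. The 9 called transcripts became 18 with DESeq2 and 3 to 9 without single libraries. The 1 member with unequal transcript change became 0 with limma on shares and 0 to 2 without single libraries. Signs turned for qin (-0.13) and spn-E (-0.13) under the covariate, for Hel25E under the covariate (0.013) and early germline scaling (0.044), for moon without Control KD replicate 3 (-0.043; -0.043 to 0.15 without single libraries), and for thoc7 without Atx2 KD replicate 2 (-0.036), without Control KD replicate 3 (-0.035) and with replicates 1 and 2 only (-0.0040; -0.036 to 0.094 without single libraries). The cause was not tested. Beside the calls named in the report, the block changed no other call of a member gene. Scaling to early germline markers moved the median log2 fold change of all genes to 0.12, where that of the members was -0.12. Of all calls, 42.3% were higher with TMM, 57.5% with upper-quartile scaling, 58.7% with early germline scaling, 58.0% with the covariate and 61.1% with limma. The direction of each of the 12 called members held in every alternative, and so did that of 5 of the 6 ratios in the alternatives run for them. The log2 ratio of nxf2 over Panx, which did not pass, differed by -0.029 in the fit reported, but by 0.00067 without Atx2 KD replicate 1 and 0.0025 without Control KD replicate 3.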
